A study of Mus musculus with 16 samples.

Results

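The large replication-dependent histone gene cluster of the mouse, known as Hist1, was described here through the H3K4me3 peaks of 2 windows on chromosome 13 (mm9): a proximal one at chr13:21700000-22150000 and a distal one at chr13:23500000-24000000. Every deposited peak that shared at least 1 bp with a window was a member. This gave 363 of the 141314 peaks on chromosomes 1 to 19 and X over 3 lists, namely 128 from B6, 115 from B6-TgWT and 120 from B6-TgYF. Joining peaks that overlapped between lists gave 130 regions of 60491, with 60 in the proximal and 70 in the distal window. The rest of chromosome 13, the comparison throughout, held 2396, 2140 and 1950 peaks and 2846 regions. A window was defined by position alone, so it also takes in peaks of genes that are not histone genes.

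The series profiled testes of several mouse lines, and its title concerns the need for the methyltransferase PRDM9 in meiotic DNA break formation. H3K4me3 ChIP-seq used an Abcam rabbit polyclonal antibody on whole testis of mice aged 13 days post-partum, with 2 libraries and 1 input in each of 3 lines. B6 was C57BL/6JOlaHsd without a transgene. B6-TgWT was C57BL/6J-Tg(RP23-159N6*)43Bdm and B6-TgYF was C57BL/6JRj-Tg(RP23-159N6*)23Bdm. As known of this work, the WT transgene codes for a working PRDM9 that binds other sites than that of B6, and the YF one for PRDM9 with a mutated catalytic domain. Whole testis mixes germ cells with somatic cells, whose markers were not checked in these lists. The substrain differs between all 3 lines, and H3K4me3 was profiled in 1 line for each transgene. A difference between lists is therefore one between lines. Each line had 1 list, so the spread between replicates is not known here, and no test over samples was possible. Intervals are 95% Wilson intervals for shares or order-statistic intervals for medians. They reflect only how many peaks were counted, which are no replicates. Where 3 values follow each other without a name, they are those of B6, B6-TgWT and B6-TgYF, in this order. The lists hold no read counts, so the depth behind a peak is unknown.

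Replication-dependent histone genes encode the H1, H2A, H2B, H3 and H4 proteins that package newly made DNA. They are short, lack introns, and are transcribed mainly in S phase into messages that end in a stem-loop instead of a poly(A) tail. Many copies lie side by side, and H2A and H2B genes often share 1 promoter stretch and are read in opposite directions. H3K4me3 is the mark of active and poised promoters, and in spermatocytes PRDM9 adds it at recombination hotspots too.

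A gene annotation of mm9 was not used here, so peaks could not be matched to genes, and the makeup of the cluster was taken from RefSeq (GRCm38.p6) as names and gene order only. That table lists 54 protein-coding histone genes on 1 stretch of chromosome 13: 6 for H1, 13 for H2A, 15 for H2B, 9 for H3 and 11 for H4. They form a group of 23 ending at H2bc11 and a group of 31 starting at H4c8, with 147 other genes and no histone gene between them. Of those 147 entries, 75 are Vmn1r vomeronasal receptor genes or pseudogenes. The first histone group is interspersed with 31 tRNA genes and with Zfp184, Pom121l2 and Prss16. The second holds Hfe, an iron regulator, Trim38 and the transporter genes Slc17a1, Slc17a2, Slc17a3 and Slc17a4. Since peaks of these neighbours may be among the members, a strong or isolated peak below is not to be read as a histone promoter. The label could not be checked further against the data, and how the mm9 window edges relate to these genes was not determined.

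The promoters of the 4 histone kinds below, the 250 bases before the start as RefSeq (GRCm38.p6) gives them, show what lies at the gene starts such a cluster repeats. They are not the sequences of the peaks. Capitals mark the box CCAAT, the core TATAAA of a TATA box, the octamer ATTTGCAT known from H2B promoters, GGTCCG of the H4 promoter element and AAACACA of the H1 promoter element, or their reverse complements.
H1f4, minus strand: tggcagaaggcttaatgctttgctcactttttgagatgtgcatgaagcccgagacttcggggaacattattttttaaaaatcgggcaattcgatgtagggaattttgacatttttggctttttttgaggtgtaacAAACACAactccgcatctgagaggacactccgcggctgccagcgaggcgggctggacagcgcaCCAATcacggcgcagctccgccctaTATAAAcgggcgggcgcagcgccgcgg
H2bc12, plus strand: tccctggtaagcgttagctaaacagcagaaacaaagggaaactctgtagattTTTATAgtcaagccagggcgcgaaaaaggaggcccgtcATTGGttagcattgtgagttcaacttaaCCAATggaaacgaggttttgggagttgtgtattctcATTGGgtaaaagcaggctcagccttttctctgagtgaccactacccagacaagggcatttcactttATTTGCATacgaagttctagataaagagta
H3c6, minus strand: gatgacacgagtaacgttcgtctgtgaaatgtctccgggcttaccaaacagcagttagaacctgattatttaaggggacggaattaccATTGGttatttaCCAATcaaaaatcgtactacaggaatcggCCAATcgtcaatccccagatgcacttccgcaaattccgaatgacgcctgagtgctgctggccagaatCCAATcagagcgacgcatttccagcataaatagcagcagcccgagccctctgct
H4c11, plus strand: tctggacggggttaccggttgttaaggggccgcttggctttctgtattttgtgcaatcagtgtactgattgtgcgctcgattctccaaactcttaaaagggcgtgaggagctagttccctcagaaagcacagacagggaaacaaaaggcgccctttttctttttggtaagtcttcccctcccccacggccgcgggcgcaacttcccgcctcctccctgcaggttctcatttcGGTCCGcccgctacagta

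Of the 54 genes, 51 matched the promoter table, with 52 promoters of 300 bases that reach 50 bases past the start. CCAAT on either strand was in 44 of the 52 (84.6%) and in 37.4% of all 32851 promoters of the table. It was in all 6 promoters of H1, 13 of H2A, 15 of H2B and 7 of H3, but in 3 of 11 of H4 genes. TATAAA was in 31 of 52 (59.6%, all promoters 13.6%). ATTTGCAT was in 6 of 15 H2B and 5 of 13 H2A promoters and in none of the H1, H3 and H4 promoters (all promoters 1.74%). GGTCCG was in 10 of 11 H4 promoters (all promoters 8.25%), and AAACACA in 5 of 6 H1 promoters (all promoters 7.18%). No 2 of these motifs overlap as printed. A match is a description of letters, not a bound site. Of 12 neighbouring H2A and H2B gene pairs, 10 were read away from each other by the strands of their promoters. H2bc4 had no promoter in the table, so a pair with it could not be counted among the 10. These 10 pairs share most of their promoter sequence, so their motif counts are not separate observations. The longest run of bases in common ranged over these 10 pairs from 220 for H2bc1 and H2ac1, a pair known from testis, to 279 for H2ac8 and H2bc8. It was 277 bases for H2ac12 and H2bc12, whose promoter is printed above. The promoter of H2bc23 was identical over all 300 bases to that of H4bc24, an H2B gene despite its symbol, and those of H4c17 and H4c18 shared 285 bases in 1 run. How the authors placed reads from such copies is not given in the sources used here, and its part in the peaks was not tested.

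H3K4me3 peaks were packed far more densely in the windows than on the rest of the chromosome, in all 3 lists. B6 had 134.7 peaks per Mb in the windows against 20.6 elsewhere on chromosome 13, measured from the first to the last peak. B6-TgWT had 121.1 against 18.4 and B6-TgYF 126.3 against 16.8. These were ratios of 6.53, 6.57 and 7.53. Peaks covered 16.8%, 13.4% and 13.7% of the windows, against 2.52%, 2.38% and 2.10% of the rest.

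Both windows contributed. The proximal window held 58, 56 and 55 peaks, and the distal window 70, 59 and 65. Per Mb this was 128.9, 124.4 and 122.2 in the proximal and 140.0, 118.0 and 130.0 in the distal window. When the chromosome was divided into 235 stretches of 500 kb, the 1 that is the distal window held the most summits in each list, with 70, 59 and 65. The highest counts among the other 234 stretches were 39, 35 and 35, and their medians 9, 8 and 8. Those 234 include the stretches that the proximal window lies in, so they hold members too.

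The members were not spread evenly within the windows. Over 19 stretches of 50 kb the windows held from 0 up to 15, 13 and 14 summits, with medians of 6, 7 and 6. The medians over the other 2325 such stretches were 1, 1 and 0. The stretch at chr13:21800001-21850000 held 15 summits in B6, the most of any, and 13 in each transgenic list. In B6-TgWT 1 stretch outside the windows was fuller than any inside, with 14. The windows held 12 stretches of at least 20 kb with no peak in any list, of which 2 were at the outer edges and were cut off by the window bounds. The longest were chr13:23870867-23957992 with 87.1 kb, chr13:23715075-23774556 with 59.5 kb and chr13:21751163-21801522 with 50.4 kb. The 2 regions that stood beside the long empty stretches at the outer edges were weak: chr13:21750339-21751162 had fold enrichments of 3.85, 4.99 and 5.21, and chr13:23957993-23958742 had 5.01 in B6, 3.35 in B6-TgYF and no peak in B6-TgWT. Fold enrichment is the height of a peak over background as the authors' peak caller gave it, and it is compared below only by its rank within a list.

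**Figure D1:**
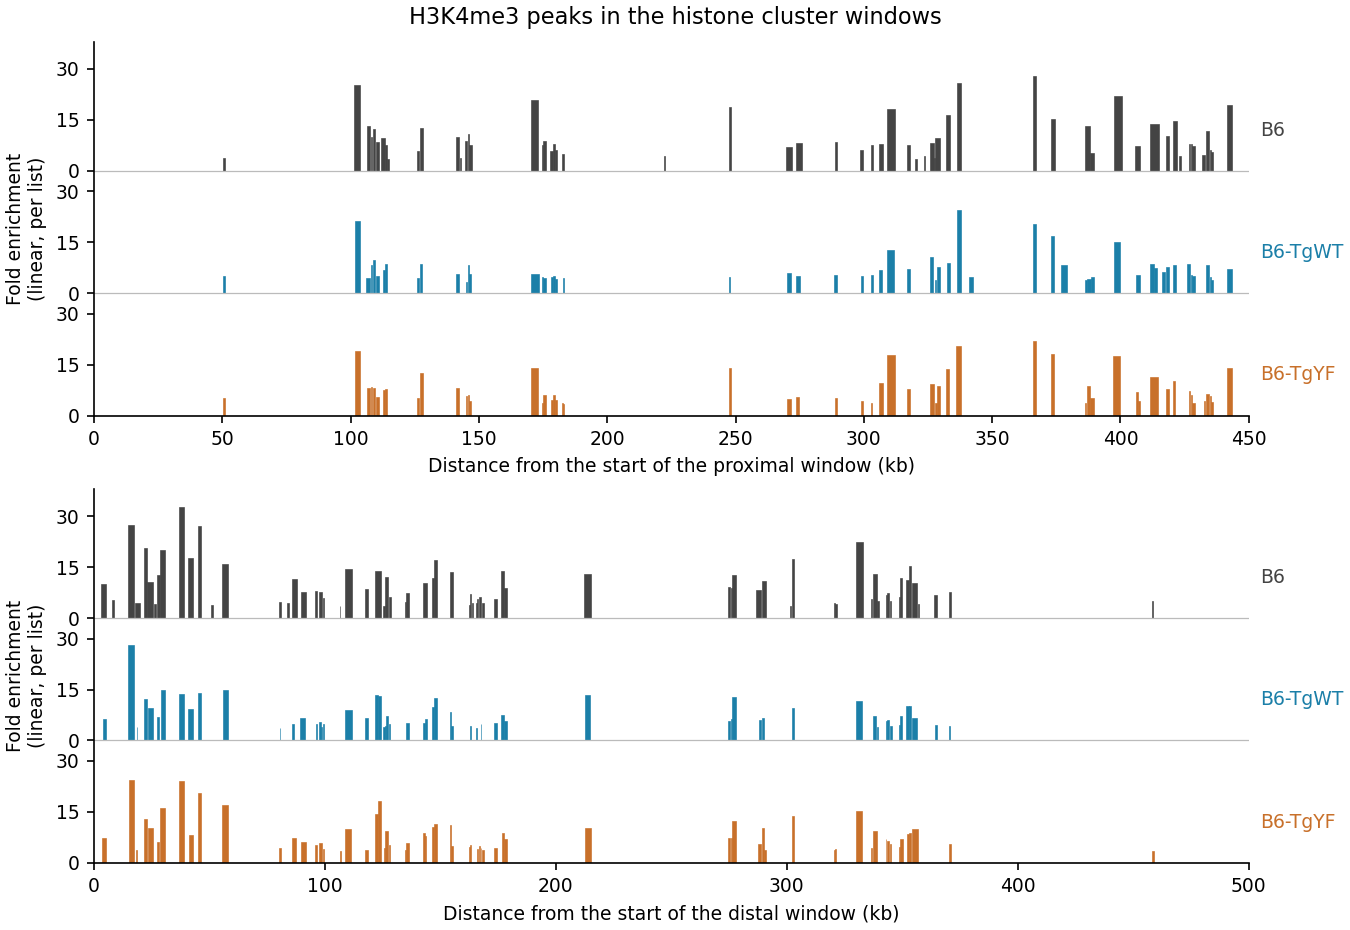
Members in the proximal window (upper panel) and the distal window (lower panel): each bar is 1 peak, with its width along the distance from the window's start in kb and its height the authors' fold enrichment on a linear scale, in 1 row for each list. The rows of the 3 lists repeat the same groups of bars and the same empty stretches, and no bar exceeds 32.65.

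Spacing between neighbouring summits had a median of 3309 bp in B6 (interval 2289 to 3820) over 126 pairs. The medians of B6-TgWT and B6-TgYF were 3421 bp (interval 2628 to 4356) over 113 pairs and 3357 bp (interval 2072 to 4321) over 118 pairs. On the rest of chromosome 13 the medians were 23352, 25063 and 26644 bp, which is 7.06, 7.33 and 7.94 times as far. The spacing was alike in both windows, with 3323, 3313 and 3326 bp in the proximal and 3295, 3540 and 3357 bp in the distal window.

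The distances fell into 2 groups, one of peaks almost touching and one of peaks a few kb apart. The gap from the end of a peak to the start of the next was under 1 kb for 53 of 126 neighbours in B6 (42.1%, interval 33.8 to 50.8), against 8.19% on the rest of the chromosome. So were 42 of 113 B6-TgWT gaps (37.2%, interval 28.8 to 46.4, rest 8.47%) and 48 of 118 B6-TgYF gaps (40.7%, interval 32.2 to 49.7, rest 8.58%). Nearly all of these were under 300 bp: 45 for B6 (35.7%, rest 5.64%), then 35 for B6-TgWT (31.0%, rest 5.85%) and 42 for B6-TgYF (35.6%, rest 6.16%). From 300 bp to 1 kb there were only 8, 7 and 6 gaps. From 1 to 10 kb there were 57, 58 and 54, and at 10 kb or more 16, 13 and 16. On the rest of the chromosome most gaps were of at least 10 kb, with 68.7%, 70.8% and 71.9%.

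**Figure D2:**
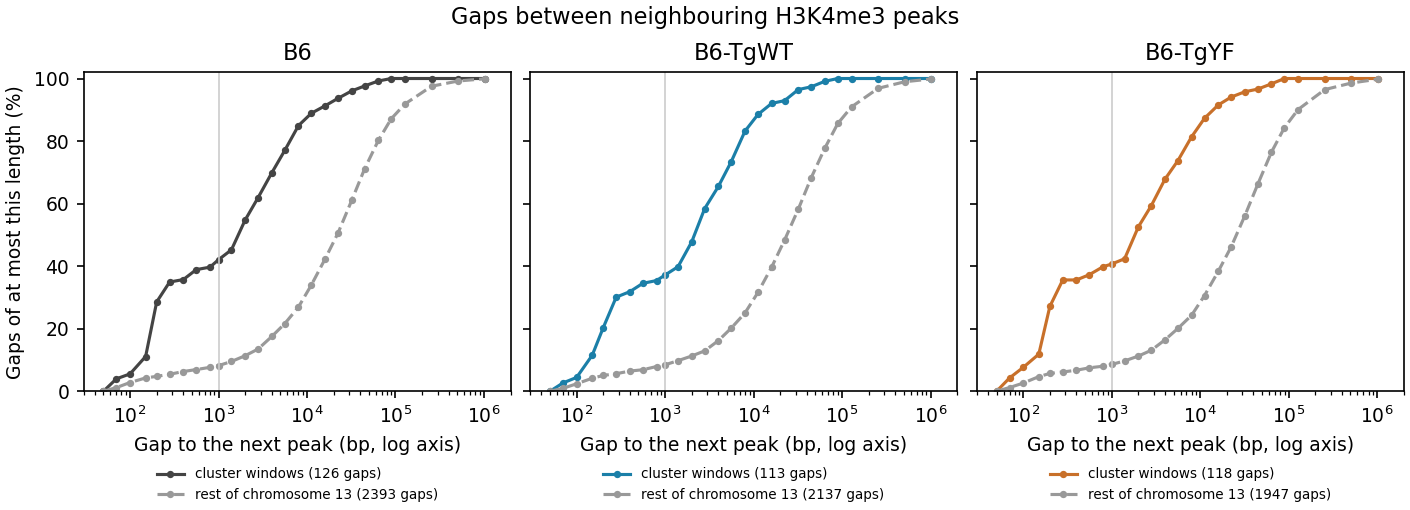
Share of gaps (%) at or below each gap length (bp, log axis; points mark the lengths read) for each list, in the windows (solid) and on the rest of chromosome 13 (dashed), with a vertical line at 1 kb. In the windows the curve climbs steeply between 100 and 300 bp, is nearly flat up to 1 kb and climbs again over the next 10 kb, while on the rest of the chromosome it climbs mainly beyond 10 kb.

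The short gaps of the windows were also of a different length. Of gaps under 300 bp, 39 of 45 in B6 measured at least 100 bp (86.7%, rest 50.4%), as did 30 of 35 in B6-TgWT (85.7%, rest 60.0%) and 33 of 42 in B6-TgYF (78.6%, rest 58.3%). Their median length was 173, 176 and 171 bp in the windows and 103, 111 and 109 bp on the rest. No gap in any list was shorter than 51 bp, on the rest of the chromosome as in the windows. Both summits lay nearer to the gap than to the far edge of their peak in 21 of 45 B6 cases (46.7%, rest 52.6%). This was so in 16 of 35 B6-TgWT cases (45.7%, rest 52.8%) and 21 of 42 B6-TgYF cases (rest 48.3%), shares near those of the rest.

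Most of these short gaps were found at the same place in the other lists. Of the 45 short gaps of B6, 30 also separated 2 peaks in B6-TgWT (66.7%, rest 37.8%) and 37 did so in B6-TgYF (82.2%, rest 49.6%). A single peak there bridged 1 and 0 of them (rest 7 and 12 of 135). In the other 14 and 8 a flanking peak was absent (rest 77 and 56 of 135). Of the 35 in B6-TgWT, 27 were also gaps in B6 (77.1%, rest 35.2%) and 30 in B6-TgYF (85.7%, rest 54.4%). Of the 42 in B6-TgYF, 34 were also gaps in B6 (81.0%, rest 51.7%) and 31 in B6-TgWT (73.8%, rest 61.7%). A single B6 peak bridged 8 of the 35 gaps of B6-TgWT (rest 59 of 125) and 8 of the 42 of B6-TgYF (rest 57 of 120).

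Peaks with gaps under 1 kb followed each other in runs. Runs of 3 or more took in 55 of the 128 B6 peaks (43.0%, rest 2.84%), 40 of the 115 of B6-TgWT (34.8%, rest 3.18%) and 45 of the 120 of B6-TgYF (37.5%, rest 3.69%). There were 15, 12 and 14 such runs. The longest, of 7 peaks in B6, spanned 8402 bp at chr13:21806461-21814862. Its peaks had fold enrichments of 13.24, 9.85, 12.21, 8.38, 9.78, 7.52 and 3.43 in order along the chromosome. Both transgenic lists held 6 peaks at this place and had no peak at the last and weakest, chr13:21814344-21814862. The fold enrichments there were 4.46, 8.30, 9.68, 5.04, 6.83 and 8.47 in B6-TgWT while B6-TgYF had 8.16, 8.43, 8.25, 5.46, 7.61 and 7.69. By fold enrichment, the first peak of the run was the highest in B6 and the lowest in B6-TgWT. By the authors' −log10 p it was not the lowest in B6-TgWT, with 33.18 against 27.48 for the peak of fold enrichment 5.04.

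A second run shows how 1 peak of a list could be several of another. At chr13:23621675-23624473 B6 had a single peak of fold enrichment 13.78, where B6-TgWT had 2 of 13.49 and 12.97 and B6-TgYF 2 of 14.37 and 18.27. The next peak, chr13:23625296-23625892, was the weakest region held by all 3 lists, with 3.62, 3.89 and 4.38. Including it, B6-TgWT had 6 peaks in a run of 6232 bp from chr13:23621750-23627981, its longest. Over all members, 12 of 130 regions (9.23%, interval 5.36 to 15.4) held several peaks of at least 1 list, against 3.23% of regions on the rest of the chromosome. A region was split in this way 1 time in B6 (0.77%, interval 0.14 to 4.23, rest 0.49%), a share near that of the rest. In B6-TgWT it was 8 times (6.15%, rest 2.21%) and in B6-TgYF 9 times (6.92%, rest 2.04%). B6 was the list with the fewest split regions on the rest too. The closest neighbouring regions stood 52 bp apart, the first at chr13:23521770-23523140.

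Widths differed less than spacing. The median peak was 1078 bp wide in B6 (interval 933 to 1277), against 1001 bp on the rest of the chromosome. The B6-TgWT median was 1041 bp (interval 888 to 1132, rest 1147) and the B6-TgYF median 901 bp (interval 782 to 1063, rest 1062), so the windows were above the rest in B6 and below it in both transgenic lists. The intervals of B6 and B6-TgYF include the median of the rest, and that of B6-TgWT ends below it. The widest member measured 3249, 3092 and 3203 bp, and the widest peaks on the rest of the chromosome 7871, 7136 and 7489 bp. Peaks over 2 kb made up 23 of the B6 members (18.0%, rest 13.8%), 13 of the B6-TgWT members (11.3%, rest 13.8%) and 13 of the B6-TgYF members (10.8%, rest 13.9%). Width followed strength in the windows as elsewhere, with Spearman's rho of 0.68, 0.64 and 0.66 across the 128, 115 and 120 members and 0.75, 0.65 and 0.74 on the rest. These are descriptions across peaks of 1 list each.

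The 5 widest regions lay at chr13:22096975-22100628 with 3654 bp, chr13:22086122-22089666 with 3545 bp, chr13:22111503-22114865 with 3363 bp, chr13:23608557-23611648 with 3092 bp and chr13:21870312-21873283 with 2972 bp. The first was 1 peak in every list, where the fold enrichments were 21.93, 15.18 and 17.67. The second held 2 peaks of B6 and 3 of each transgenic list, and its strongest peaks had 13.24, 4.83 and 8.60. The third was 1 peak in B6 and B6-TgYF and 2 in B6-TgWT. Width of a region therefore came in part from several peaks joined by the lists together.

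By strength the members were of middle rank. Strength is given as the percentile of fold enrichment within the whole list, where 100 is the strongest. The median member stood at percentile 51.6 for B6 (interval 48.6 to 56.2), 44.3 for B6-TgWT (interval 35.9 to 52.0) and 46.0 for B6-TgYF (interval 37.8 to 51.0), and the rest of chromosome 13 at 43.4, 44.0 and 43.3. The intervals of both transgenic lists include the median of the rest, and that of B6 lies above it. Percentiles 25 to 75 held 91 of 128 members in B6 (71.1%, interval 62.7 to 78.2), against 51.4% of the rest. They held 84 of the 115 B6-TgWT members (73.0%, interval 64.3 to 80.3, rest 51.6%) and 82 of the 120 B6-TgYF members (68.3%, interval 59.6 to 76, rest 51.0%). The strong end was thin in each list. The strongest 10% of a list included 1 B6 member (0.78%, rest 8.35%), 2 B6-TgWT members (1.74%, rest 8.79%) and 0 B6-TgYF members (rest 8.51%). The upper limit of the Wilson interval was 3.10% in B6-TgYF. The weakest 10% included 5, 6 and 9 members, or 3.91%, 5.22% and 7.50%, and 12.02%, 12.29% and 12.72% of the rest. The intervals ended below the share of the rest in B6 (1.68 to 8.82) and B6-TgWT (2.41 to 10.9), and included it in B6-TgYF (3.996 to 13.6). Fold enrichments of the members had lowest values of 3.43, 3.32 and 3.35 and highest values of 32.65, 28.04 and 24.35.

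**Figure D3:**
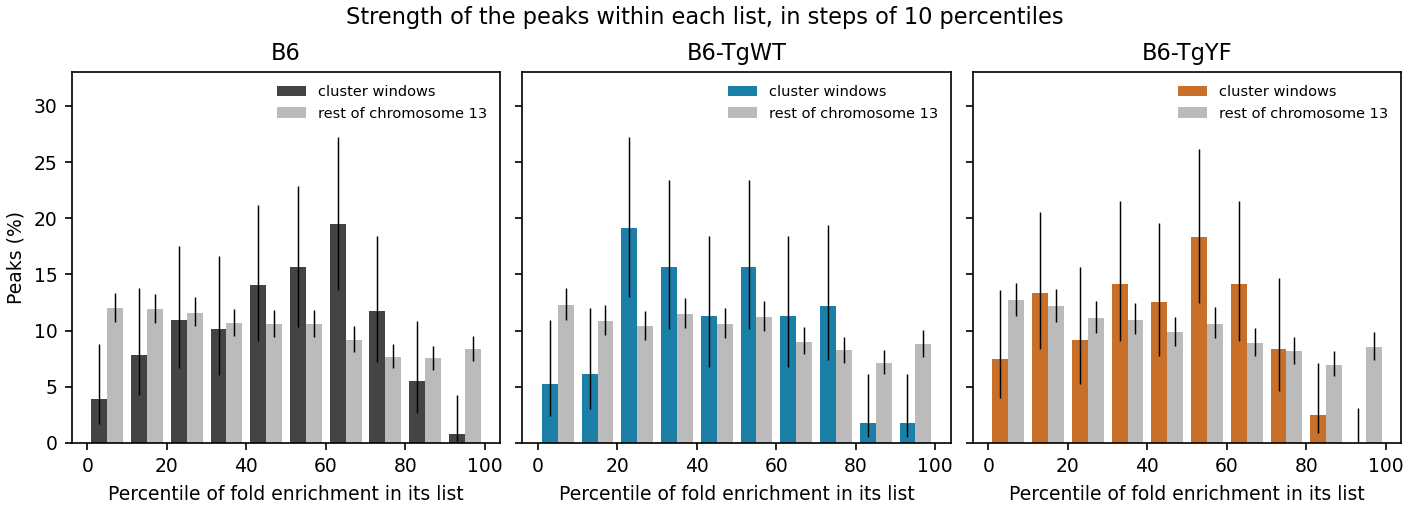
Share of peaks (%) in each step of 10 percentiles of fold enrichment, for each list, in the windows (coloured) and on the rest of chromosome 13 (grey), with 95% Wilson intervals as lines. Members gather in the middle steps and are few above percentile 80, with 1, 2 and 0 peaks above percentile 90.

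The strongest region by mean percentile was chr13:23514964-23517502 in the distal window, where the fold enrichments were 27.51, 28.04 and 24.35. It was the top member in both transgenic lists, at percentiles 96.3 and 85.5, and stood at 88.3 in B6. Its neighbour 107 bp away, chr13:23517610-23519863, was among the weakest regions of all 3 lists, with 4.54, 3.92 and 3.64. The top member in B6 was chr13:23536743-23539108 with 32.65, at percentile 94.8, against 13.69 in B6-TgWT (percentile 74.6) and 24.22 in B6-TgYF (percentile 85.2). In the proximal window chr13:22065830-22067098 had 28.02, 20.52 and 22.07, chr13:22036053-22037878 had 25.82, 24.40 and 20.45, and chr13:21801523-21803549 had 25.19, 21.35 and 19.06. The other 5 of the 10 strongest had mean percentiles from 74.4 to 80.8, and all 10 were held by all 3 lists. The 5 weakest of the regions in all 3 lists had mean percentiles from 13.7 to 20.2.

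Most cluster regions were present in every list. All 3 lists held 100 of 130 regions (76.9%, interval 69.0 to 83.3), against 55.4% on the rest of chromosome 13 and 59.3% on the other chromosomes. Regions of B6-TgWT alone count in these totals, 3 of 130 in the windows and 429 of 2846 on the rest, and widen the contrast. The share in all 3 lists was 49 of 60 in the proximal and 51 of 70 in the distal window. It moved with strength in the windows as on the rest. Of regions at or below percentile 25 of B6, 3 of 22 were in all 3 lists (13.6%, rest 15.1%). From percentile 25 to 50 it was 29 of 37 (78.4%, interval 62.8 to 88.6, rest 67.9%), from 50 to 75 it was 53 of 53 (rest 99.3%), and above 75 it was 15 of 15 (rest 461 of 461). With only the strongest 50% of each list the share was 54.9% in the windows and 59.0% on the rest, so the order of windows and rest turned around.

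The remaining 30 regions were mostly weak ones with a B6 peak. B6 and B6-TgYF alone shared 10 (7.69%, rest 9.66%) and B6 and B6-TgWT 3 (2.31%, rest 2.21%), while the transgenic lists shared none that B6 lacked (rest 0.0703%). B6 alone held 14 (10.8%, rest 16.4%), with fold enrichments from 3.43 to 5.22. No region was in B6-TgYF alone (rest 1.16%).

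B6-TgWT alone held 3 regions (2.31%, interval 0.79 to 6.57), against 15.1% of regions on the rest of the chromosome. These are shares of all regions, which were packed more densely in the windows. By length, there were 3 such regions in 0.95 Mb of windows and 429 in 116.2 Mb of the rest. The lower share therefore does not show that such regions were rarer per Mb. All 3 lay in the proximal window. The strongest of any region held by fewer than 3 lists was chr13:22076946-22079000, with a fold enrichment of 8.40, percentile 59.6 and a width of 2055 bp. The other 2 were chr13:22116044-22117327 with 6.16 and chr13:22041107-22042440 with 4.84. Their summits lay at 22077580, 22116515 and 22042023. Absence from a list means that no peak was listed there, not that the mark was missing.

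**Figure D4:**
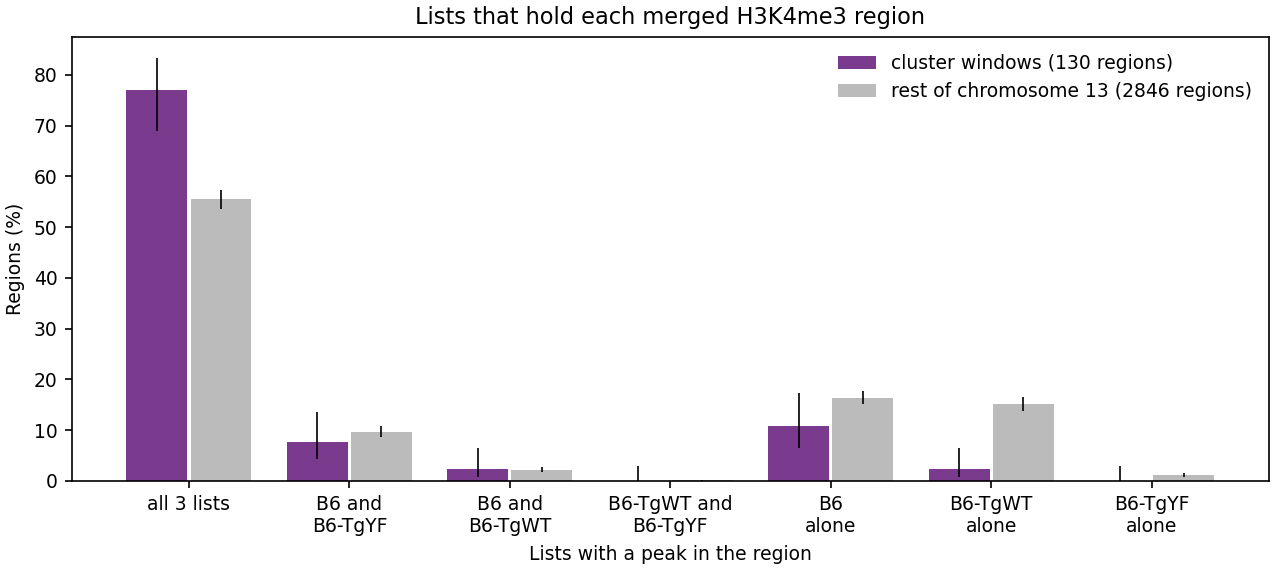
Share of merged regions (%) by the lists that hold a peak in them, for the 130 regions of the windows (purple) and the 2846 regions on the rest of chromosome 13 (grey), with 95% Wilson intervals as lines. The share in all 3 lists is 76.9% against 55.4%, and that of B6-TgWT alone 2.31% against 15.1%. The last 2 shares stand for 3 regions in 0.95 Mb and 429 regions in 116.2 Mb.

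Where all 3 lists held a region, the summits lay close together. The summits of B6 and B6-TgYF were within 50 bp in 78 of the 100 regions (78.0%, rest 61.9%), with a median difference of 22 bp (rest 33). For B6 and B6-TgWT it was 68 (68.0%, rest 60.3%) with 26 bp (rest 36), and for the transgenic pair 66 (66.0%, rest 56.8%) with 29 bp (rest 39). The largest differences for these pairs, in the same order, were 1958, 1686 and 1687 bp, in regions where the lists put their highest point at different places.

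The rank order of these regions was similar between lists, least so for the pairs with B6-TgWT in the proximal window. Spearman's rho over the 100 regions was 0.89 for B6 against B6-TgYF, 0.77 for B6 against B6-TgWT and 0.81 between the transgenic lists. Over the 1578 such regions on the rest it was 0.90, 0.88 and 0.88 for these pairs, whose order is kept below. In the distal window the values were 0.89, 0.91 and 0.89 over 51 regions. In the proximal window they were 0.87, 0.61 and 0.69 over 49 regions. By the authors' −log10 q in place of the fold enrichment, the proximal values were 0.93, 0.86 and 0.87 and the distal ones 0.94, 0.96 and 0.93. Split by window, these values were computed after the pooled ones were seen, neighbouring regions share their surroundings, and no test was run on the difference between windows.

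Ranked among the 35780 regions that all 3 lists held on all chromosomes, the percentiles of a region spread over more than 20 points between lists in 20 of 100 regions, a share near that of the rest (24.5%). Of these 20 regions, 16 were in the proximal and 4 in the distal window. The widest spread was at chr13:21947421-21948218, with fold enrichments of 18.70, 4.66 and 14.14 and percentiles 66.3, 19.4 and 63.5. Next were chr13:21870312-21873283 with 20.74, 5.64 and 14.14, and chr13:21806161-21807737 with 13.24, 4.46 and 8.16. In these 3 regions, singled out after their values were seen, B6-TgWT was the low list by fold enrichment and B6 and B6-TgYF ranked near each other. The −log10 q of these B6-TgWT peaks was 37.18, 54.29 and 31.11. The second of them had a fold enrichment of 5.64, and the B6-TgWT member chr13:21841180-21842147, with the same value, had a −log10 q of 27.15. The spread went the other way at chr13:22025603-22027228, with 8.20, 10.56 and 9.23 and percentiles of 32.1, 58.7 and 49.7. At chr13:23617389-23618851 in the distal window B6-TgYF was the low list, with 8.53, 6.57 and 3.63.

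**Figure D5:**
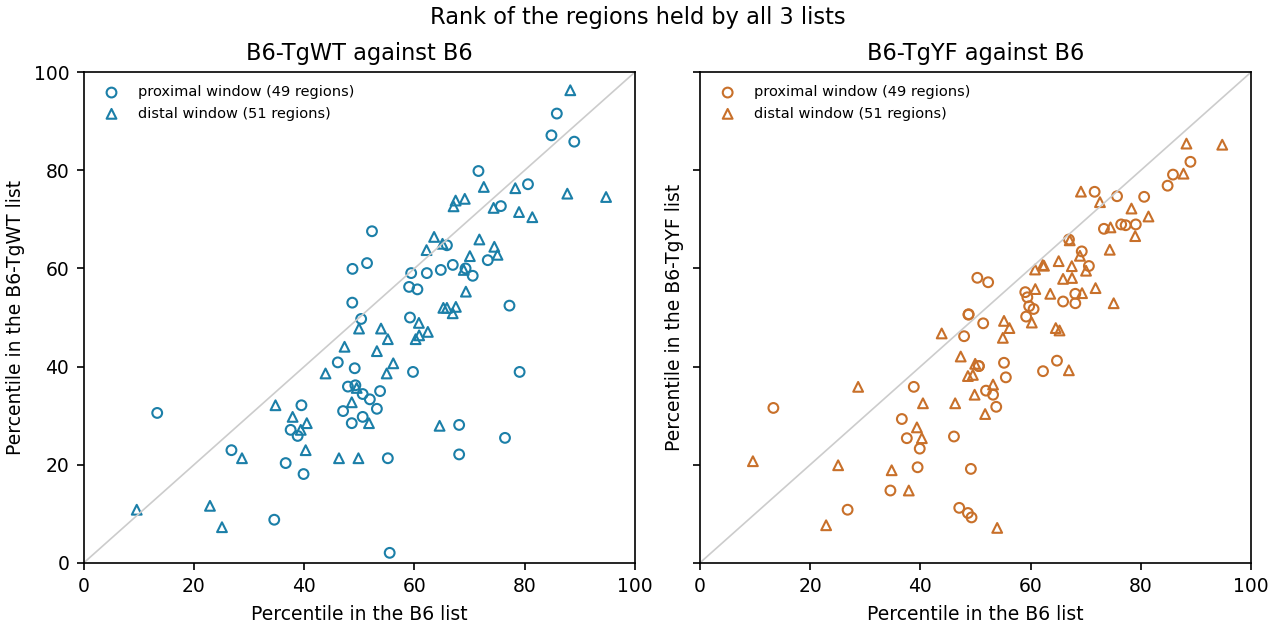
Percentile of fold enrichment in the B6-TgWT list (left) and the B6-TgYF list (right) against that in the B6 list, each within its own list, for the 49 proximal (circles) and 51 distal regions (triangles) held by all 3 lists, with the line of equal percentiles in grey. Points of the proximal window scatter more widely in the left panel, where rho was 0.61 for the proximal and 0.91 for the distal regions by the same fold enrichments.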

How the data were processed

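The members, the lists of genes and the comparisons were chosen with earlier results of these data known. H3K4me3 peaks were deposited as 1 list per line, which the labels of the 2 ChIP samples and the input all name. Per the submitters' processing notes, CASAVA, Bowtie2, BWA and MACS2 were used, and mm9 was the build; neither versions nor roles are stated there. The way replicates were combined and the cutoff are likewise not stated. The B6 list has d12 in its name, although its samples are labelled 13 days.

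Each list had 10 columns without a header, read as MACS narrow peaks. Fold enrichment, a ratio over background, was deposited as the authors' caller wrote it. The deposited score was 10 times the authors' −log10 p. The −log10 p and −log10 q were deposited too, and were used to filter and rank peaks within a list. No list holds read counts, so depth is unknown. Positions count from 1.

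The autosomes, 1 to 19, and X were kept, and peaks sharing at least 1 bp formed regions. Named regions were the 10 strongest by mean percentile, the 5 widest, the 5 weakest of all 3 lists, the closest and widest-spaced neighbours and the 10 strongest of fewer than 3 lists. Histone genes were matched by symbol or synonym. Alternatives were peaks wholly inside a window, a common lowest −log10 p of 12, the strongest 50% of each list, −log10 q as strength, peaks extended by 500 bp and summits within 500 bp. The software was pandas 2.3.3 and numpy 2.4.6 in Python 3.11.15, with scipy 1.17.1 for correlations and intervals and matplotlib 3.10.9 for plots. The code was tested on simulated data. The DMC1 libraries, 7 of the 16 samples, were not analysed here.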

Additional observations from a re-analysis of the deposited data

How the results depend on the processing

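No paired analysis was possible because both replicates of a line went into 1 list, and leaving out a replicate was not possible for the same reason. Counting only peaks wholly inside a window kept all 128, 115 and 120 members, so the 13 results computed under it could not differ. A −log10 p of at least 12 kept 128, 115 and 118 members, so its 13 results could barely differ. All of them stayed within their interval or within 1.5 times the count. The median percentile of −log10 q was also within its interval in each list. With the strongest 50% of each list, the windows held 68 (B6), 49 (B6-TgWT) and 52 (B6-TgYF) peaks. The median distance between summits was then 6397, 6682 and 6979 bp, the median width 1480, 1263 and 1272 bp, and the share of gaps under 1 kb 24.2%, 17.0% and 18.0%. By construction this setting has fewer peaks. The distance on the rest of chromosome 13 was 46817, 52326 and 54720 bp, again 7.32, 7.83 and 7.84 times as far, and the gap shares there were 3.20%, 4.86% and 4.53%. Widths on the rest were 1599, 1622 and 1680 bp, so in B6 the windows were then below the rest. The share of regions in all 3 lists was 54.9% with the strongest 50% (rest 59.0%). It was 65 of 77 (84.4%) with peaks extended by 500 bp, which joined the 130 regions into 77. With summits within 500 bp it was 85 of 126 (67.5%). For extended peaks and for summits the share on the rest was not computed, so they do not show whether the windows stayed above it. The rank correlations by −log10 q, an alternative chosen after seeing the data, were 0.94 for B6 with B6-TgYF, 0.91 for B6 with B6-TgWT and 0.91 between the transgenic lists. The cause of these shifts was not tested. The gap shares under other settings were also added after seeing the data.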

Other observations

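The stretch between the windows, chr13:22150001-23499999, held few peaks, namely 14 (B6), 15 (B6-TgWT) and 13 (B6-TgYF), or 10.4, 11.1 and 9.63 per Mb. They formed 15 regions, of which 13 were held by all 3 lists, 1 by B6 alone and 1 by B6-TgWT alone. In the gene order of RefSeq (GRCm38.p6) the Vmn1r genes lie between the histone gene groups, as do others such as Zfp322a, Abt1, Btn1a1 and Btn2a2. No peak was assigned to any of these genes. The peaks gathered toward the distal window: 11 of the 15 regions started at 23361793 or later. The strongest was chr13:23459957-23461875, where B6 had a fold enrichment of 21.93, B6-TgWT one of 16.46 and B6-TgYF one of 30.09. The B6-TgYF value there exceeded that of every member in the windows in the same list, where the highest was 24.35.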
